A study of Mus musculus with 143 samples.

Results

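The colony-stimulating factor (CSF) and transforming growth factor beta (TGF-beta) signalling genes were followed in single microglia of the mouse cerebellum. The set was a list of 10 gene symbols taken from the 23337 gene rows of the count table: Csf1r, Csf1, Csf2ra, Csf2rb, Csf3r, Tgfb1, Tgfbr1, Tgfbr2, Smad3 and Ski. All 10 had a row, and all 10 had a count in at least 1 cell. The series holds 143 cells of 1 group: microglia of wild type male C57BL/6N mice at postnatal day 7 (P7), sorted through a CD45low CD11b+ Gpnmb+ Clec7a+ gate. Animals were pooled before sorting and no label ties a cell to an animal, so the 143 cells count as 1 sample. The labels place 95 cells on a first plate and 48 on a second, called plate 1 and plate 2. The age rests on the age label and the title of the series. The name of a pooled library among the labels reads adult. Without a second sample or another population no test between conditions was possible, and no level is set against that of microglia outside the gate.

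Microglia are the resident macrophages of the brain. They depend for survival on the receptor tyrosine kinase encoded by Csf1r, which binds the cytokine CSF1 and, with an unrelated sequence, interleukin 34. CSF2 (GM-CSF) and CSF3 (G-CSF) act through cytokine receptors of another family, which signal through Janus kinases. TGF-beta is secreted in a latent form, is held by anchor proteins and is released by integrins. The type II receptor then activates the type I receptor, which phosphorylates Smad2 and Smad3. These join Smad4 on DNA, where Ski and its relative Skil act as co-repressors. TGF-beta signalling is known to maintain the expression programme of homeostatic microglia.

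Values are Smart-seq2 read counts, from a full-length method without molecular identifiers. They are given as counts per 1000000 gene counts of a cell (CPM) or, for all cells together, as pooled CPM, the summed counts of a gene over the summed counts of all genes. A gene was called read in a cell with at least 1 count, and shares of cells carry exact Clopper-Pearson 95% intervals, which cover counting error only. Total counts per cell ran from 271190 to 1226521 with a median of 760690, and 1552 to 4955 genes were detected per cell. Of the 11 microglial markers listed, 11 were read and 7, Csf1r of the set among them, were read in every cell. Sall1 was read in 58.7% of cells and Tmem119 in 25.9%. Of 7 monocyte markers, 3 were read, in 27 cells in all: Fn1 in 22, Ccr2 in 3 and Vcan in 3. Ly6c2 and Plac8 were among those at 0, and the T or NK cell and the pericyte or fibroblast markers were at 0 throughout. Markers of the oligodendrocyte lineage were read in 81 cells (Cnp in 35.7%), of astrocytes in 32 and of B cells in 53, the last through Cd79b alone. Of 9 border-associated macrophage markers, 6 were read, with Stab1 in 87.4% and Mrc1 in 55.9% of cells and Cd163, Lyve1 and Cd209f in 0. Of the same list, Ms4a7 was read in 30 cells, Pf4 in 23, Clec4n in 7 and F13a1 in 5. No markers beyond these 9 were used to separate such macrophages from these cells, and their part in the results was not tested.

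Detection ran from a receptor read everywhere, through 7 genes read in 49.7% to 88.1% of cells, to a pair read rarely. Csf1r was read in 143 of 143 cells (interval 97.5 to 100). Csf2ra was read in 88.1% of cells (81.6 to 92.9), Csf1 in 78.3% (70.7 to 84.8), Tgfbr2 in 74.1% (66.1 to 81.1) and Tgfbr1 in 60.8% (52.3 to 68.9). Csf3r, Ski and Csf2rb followed with 76, 75 and 71 cells (53.1%, 52.4% and 49.7%), and their intervals overlapped. Smad3 was read in 15 cells (10.5%, 5.99 to 16.7) and Tgfb1 in 10 (6.99%, 3.40 to 12.5). In all, 7 of the 10 genes reached a share of 50% of cells, against 17.2% of the 12801 genes with any count. Csf1r alone reached 90%, against 4.26% of those genes. A cell held reads of 2 to 8 of the 10 genes, with a median of 6.

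**Figure D1:**
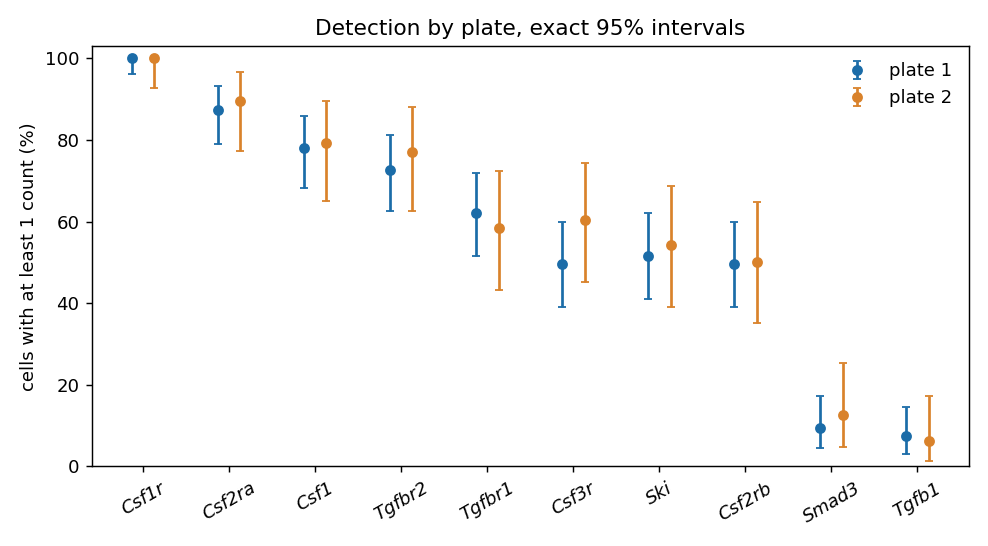
Share of cells with at least 1 count (vertical axis, percent) for each of the 10 genes on plate 1 (95 cells) and plate 2 (48 cells). Bars are exact 95% intervals. For each gene the intervals of the plates overlap, and Smad3 and Tgfb1 lie far below the other genes.

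Csf1r was abundant in every cell. Its level ran from 250.5 to 5703 CPM with a median of 1719 and quartiles of 1188 and 2800, a 22.8-fold range without a cell at 0. The medians of plate 1 and plate 2 were 1762 and 1633 CPM. With a pooled level of 2099.8 CPM it ranked 38th of the genes with a count. The 5 highest cells carried 8.67% of its CPM summed over cells, so its level did not rest on a few cells. Csf1r lies on chromosome 18 from 61100598 to 61132149 on the plus strand (build GRCm38), and 15.1% of its exon bases overlap exons of its neighbour Hmgxb3. Reads there cannot be assigned without strand (the setting: not given in the sources used here).

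Csf1, the ligand, was read in most of the same cells, at levels that spread over a wide range. The lowest cell had 0, the quartiles were 27.2 and 370.4 CPM, the median 149 CPM and the highest cell 1743. Among the cells with a read the median was 211 CPM. Plate medians were 123.5 and 179 CPM, and the highest cells of the plates had 1406 and 1743. Csf1 lies on chromosome 3 from 107741048 to 107760469 on the minus strand. Of the 6 CSF ligands listed, Csf1 was the only one read: Il34, the other ligand of the receptor, and Csf2, Csf3, Il3 and Il5 were each read in 0 of 143 cells, for which the exact interval reaches up to 2.55% of cells with a read (2.098% by the limit of 3 counts). Since Csf1r was read in every cell, receptor and ligand were read together wherever Csf1 was read.

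Genes that carry the signal of the CSF1 receptor were detected more unevenly than the receptor. Of 39 listed, 38 were read. A share of 50% of cells was reached by 10 and a share of 90% by 3, and the median share was 30.8%, against 16.1% over all genes with a count. Tyrobp, the adaptor DAP12, was read in every cell with a pooled level of 2483 CPM. The phosphatases Ptpn6 (SHP-1) and Inpp5d (SHIP1) were read in 93.01% and 91.6% of cells, the Src-family kinase Lyn in 78.3%, and Dusp6, a phosphatase of the ERK kinases, in 70.6%. Cish, a feedback inhibitor of cytokine signalling, was at 0. Of 10 transcription factors known to act on the Csf1r gene, all 10 were read, 5 of them in at least 50% of cells. Sfpi1, the older symbol of Spi1 (PU.1), was read in 95.8%, Mef2c in 90.9%, Irf8 in 89.5% and Runx1 in 46.2%.

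The GM-CSF receptor consists of an alpha chain, Csf2ra, and a beta chain, Csf2rb, which it shares with the receptors of interleukins 3 and 5. The mouse has a second beta chain gene, Csf2rb2, whose product serves interleukin 3. The genes lie close together on chromosome 15, Csf2rb from 78325752 to 78353847 on the plus strand and Csf2rb2 from 78282507 to 78305721 on the minus strand. Their coding sequences are 95.2% identical (2503 of 2628 aligned bases), which bears on every count of either gene. The 90 bases of each gene shown here lie in exon 3 on build GRCm38 (Csf2rb at chr15:78336348-78336437, plus strand, Csf2rb2 at chr15:78297013-78297102, minus strand). They are written 5′ to 3′, and the 4 bases in capitals are those at which the genes differ in this stretch.
Csf2rb: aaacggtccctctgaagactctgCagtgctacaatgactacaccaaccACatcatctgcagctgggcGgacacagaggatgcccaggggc
Csf2rb2: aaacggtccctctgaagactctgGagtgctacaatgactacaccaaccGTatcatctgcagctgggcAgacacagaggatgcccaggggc
Of all 50-base words in the exons of Csf2rb, 17.1% also occur in another gene, and of those of Csf2rb2, 19.3%. A read that falls within such a word cannot be assigned to a gene, so the split between the beta chains is uncertain.

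The alpha chain was the more widely read part of this receptor. Csf2ra (chromosome 19, 61223957 to 61228429, minus strand) ran from 0 to 1581 CPM, with quartiles of 131.2 and 446 and a median of 255. Its plate medians, 255 and 262 CPM, lay close together. Csf2rb ran from 0 to 799 CPM and its median over all cells was 0, while the 71 cells with a read had a median of 108.3. Csf2rb2 was read in 30 cells (21.0%, 14.6 to 28.6), on plate 1 in 15.8% and on plate 2 in 31.2%. Its highest cell had 350.3 CPM.

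Alpha and beta chain were read together about as often as separate detection would give. Both Csf2ra and Csf2rb were read in 64 cells, where independence gives 62.6, and 10 cells had neither. Csf2ra without Csf2rb was read in 62 cells, and the reverse in 7. Counting either beta chain, 74 cells had both parts, where independence gives 73.1. Csf2rb and Csf2rb2 were read together in 18 cells, where independence gives 14.9. Of the other receptors of this family, Il3ra, the alpha chain for interleukin 3, was read in 37 cells and Il5ra in 0.

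Csf3r, the receptor of G-CSF and a gene best known from neutrophils, was read in 76 cells. It lies on chromosome 4 from 126024550 to 126044440 on the plus strand, and 11.4% of its 50-base words occur in another annotated gene. Levels ran from 0 to 1101 CPM with a median of 10.3 and an upper quartile of 211. The 76 cells with a read had a median of 203. The median was 0 on plate 1 and 54.5 CPM on plate 2, with shares of 49.5% and 60.4% and overlapping intervals. The neutrophil markers were near 0: of the 10 with a row, 6 were read, in 13 cells in all, and their summed level ran from 0 to 62.8 CPM over cells. S100a8 was read in 10 cells, 3 of them with Csf3r where independence gives 5.31. Ltf, Retnlg, Mmp8 and Elane were at 0.

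**Figure D2:**
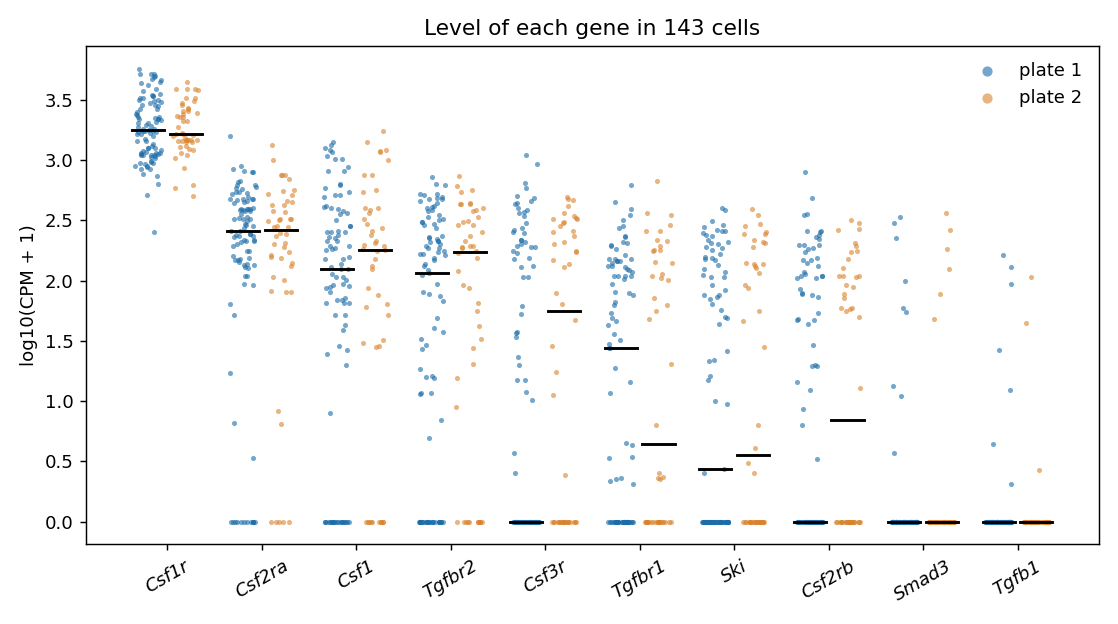
Level of each of the 10 genes in each cell, as log10 of CPM + 1 on the vertical axis, with plate 1 and plate 2 side by side. Each point is a cell, and bars are medians. Csf1r lies above 250 CPM in every cell, Csf2ra and Csf1 spread over a wide range, and most cells lie at 0 for Smad3 and Tgfb1.

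On the TGF-beta side, receptors were read widely and the ligand rarely. Tgfb1 (chromosome 7, 25687002 to 25705077, plus strand) had 94, 87, 63, 54, 31, 19, 9, 2, 1 and 1 counts in its 10 cells. The highest cell reached 162 CPM, the median of those cells was 34.7, and the 5 highest held 92.5% of its CPM summed over cells. Its exons share no bases and no 50-base words with another annotated gene. Reads came from 7 cells of plate 1 and 3 of plate 2. Of 17 genes listed as ligands of the family, 4 were read, each in under 10% of cells: Tgfb1, Bmp1, Gdf15 and Gdf3. Gdf15 was read in 3 cells, Gdf3 in 2 and Bmp1 in 6, but Bmp1 encodes a protease and not a ligand. Tgfb2 and Tgfb3 were at 0.

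Genes that hold and release latent TGF-beta were divided between a few read widely and many read rarely or not at all. Of 19 genes of storage and activation, 10 were read, 5 of them in at least 50% of cells, and 13 were under 10%, so the median share was 0.699%. Lrrc33, the older symbol of Nrros, whose product anchors latent TGF-beta on microglia, was read in 79.02% of cells at a pooled 340.5 CPM. Itgb1 was read in 93.01%, Itgb5 in 63.6%, Itgav, the alpha chain of the integrins that release TGF-beta, in 57.3%, and Furin, which cleaves its precursor, in 53.1%. The anchors Ltbp1, Ltbp2, Ltbp3 and Lrrc32 and the integrin chains Itgb6 and Itgb8 were at 0. Tgfb1 and Lrrc33 were read together in 6 cells, where independence gives 7.90.

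The receptor chains of TGF-beta were the only receptors of the family read in at least 50% of cells, 2 of the 15 listed. Tgfbr2, the type II chain (chromosome 9, 116084293 to 116175360, minus strand), ran from 0 to 735 CPM with a median of 131.8 and an upper quartile of 306, and its plate medians were 114.4 and 173. Tgfbr1, the type I chain (chromosome 4, 47353222 to 47414931, plus strand), ran from 0 to 661 CPM with a median of 17.8 and an upper quartile of 135.4. Its plate medians were 26.4 and 3.45 CPM, although its share of cells was 62.1% and 58.3%. Both chains were read in 64 cells, where independence gives 64.5, and 14 cells had neither. Among receptors for bone morphogenetic proteins, Bmpr2 was read in 16.1%, Acvrl1 in 13.3% and Bmpr1a in 11.2% of cells, and the co-receptor Eng in 10.5%.

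No Smad was read in at least 50% of cells. Smad3 (chromosome 9, 63646767 to 63757994, minus strand) had from 2 to 284 counts in its 15 cells and a median of 97.7 CPM in them, with a highest cell of 362. The 5 highest cells held 69.05% of its CPM summed over cells. Of the 8 Smads, 7 were read, with a median share of 10.8%. Smad2, the other substrate of the receptor, was read in 26.6%, the shared partner Smad4 in 11.9% and the inhibitory Smad7 in 8.39% of cells. Smad2 and Smad3 were read together in 0 cells, where independence gives 3.99, a small number at which counting error is large.

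Ski (chromosome 4, 155154075 to 155222592, minus strand) was read in 75 cells, with levels from 0 to 399 CPM. Its median over all cells was 2.06 CPM, its upper quartile 137.2 and its median in cells with a read 134.4. The shares on the plates were 51.6% and 54.2%. Its relative Skil was read in 71.3% of cells, and both were read in 55, where independence gives 53.5. Of 23 co-repressors and regulators of the pathway, all 23 were read, 6 of them in at least 50% of cells, and the median share was 32.9%. Dab2, an endocytic adaptor that binds the receptors, was read in 94.4%, Fkbp1a, which binds the type I receptor, in 90.9%, and Strap in 46.9%. The co-repressor Ncor1 was read in 58.04% and the deacetylase Hdac1 in 55.9%.

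Genes known to respond to TGF-beta were read to very different extents. Of 16 general targets, 12 were read, 3 of them in at least 50% of cells, and the median share was 10.5%. These 3 were Id2 (72.0%), Skil (71.3%) and Cdkn1a (51.05%), while Ctgf, Id3 and Col1a1 were at 0. Of 24 genes of microglia linked to TGF-beta, all 24 were read. A share of 50% of cells was reached by 17, reads in every cell were found for 4, with Cst3, Fcrls and C1qa among them, and the median share was 75.9%. Tmem119 of this list was read in 25.9%. The lists are shares of cells within this gate and say nothing of a response to the ligand.

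**Figure D3:**
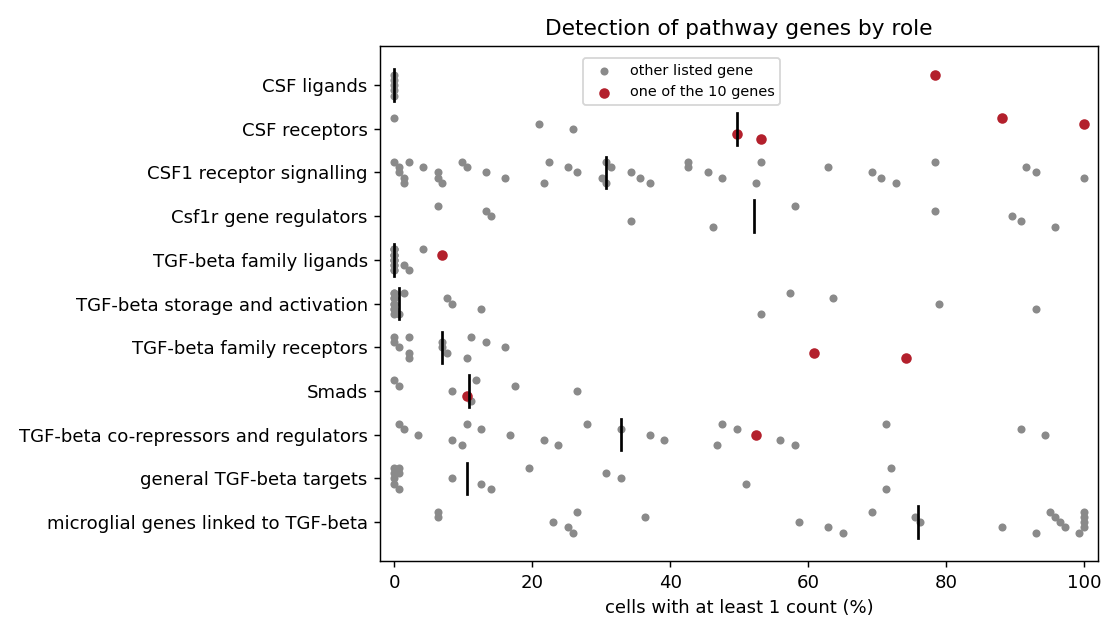
Share of cells with at least 1 count (horizontal axis, percent) for each gene of 11 pathway lists, 1 point per gene and 1 row per list. Black bars are list medians and red points are genes of the set of 10. The TGF-beta receptors Tgfbr1 and Tgfbr2 stand to the right of the other receptors of their family, and Tgfb1 stands near 0 with the other ligands.

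Levels of different genes were compared per kilobase of exon of protein-coding transcripts, as pooled CPM per kilobase. Csf1r led with 421, followed by Csf2ra with 165, Csf1 with 58.5, Csf3r with 35.7 and Tgfbr2 with 20.9. Ski, Csf2rb and Tgfbr1 came next with 14.4, 12.98 and 12.5. Smad3 with 2.87 and Tgfb1 with 1.61 were lowest. Ski, Csf2rb and Tgfbr1 did not keep a fixed order: they had 14.2, 13.1 and 11.9 on plate 1 and 14.8, 12.7 and 13.7 on plate 2. The other neighbours kept their order on both plates. With the exons of all transcripts, a length chosen after the data were seen, Csf2ra had 106.96 and Tgfb1 0.693, and both kept their places, while Csf2rb came after Tgfbr1.

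The plates were compared gene by gene. On the log2 scale of pooled CPM + 1, the ratio of plate 1 to plate 2 was 0.10 for Csf1r, -0.28 for Csf1, -0.04 for Csf2ra, -0.27 for Csf3r and -0.26 for Tgfbr2. The ratio of Smad3 was -0.77, from 9 cells of plate 1 and 6 of plate 2. Of the 9 genes whose pooled level was 10 CPM or more, 0 were past 2-fold, where 10.6% of the 7616 genes at that level were. Among 9 genes a count of 0 is near that share.

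Csf1 varied from cell to cell more, for its level, than nearly all other genes. The spread of a gene was measured by its squared coefficient of variation over cells, in CPM, set as a log2 excess over a running median over genes of like mean, for the 7789 genes with a read in 10% of cells or more. The excess of Csf1 was 1.31, above 99.2% of those genes, with 1.16 on plate 1 and 1.49 on plate 2. Csf3r had 0.65 (percentile 92.8), but 0.96 on plate 1 and 0.10 on plate 2. Smad3, read in few cells, had 0.60. Csf1r had 0.33 over all cells and -0.10 on plate 2. Csf2ra had 0.21, Tgfbr2 0.05, Csf2rb 0.01, Tgfbr1 -0.08 and Ski -0.36. With the variance of log2(CPM + 1) in place of this measure, the excess was 2.90 for Csf1 and 1.31 for Csf3r, but -0.63 for Csf1r, -0.80 for Smad3, -0.90 for Tgfbr1 and -0.66 for Tgfbr2. Tgfb1 was read in too few cells to be placed.

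Co-variation of the 10 genes was taken over the 143 cells. Spearman's rho, here a description over cells that share a pool, a sort and a total to which each is scaled, ran from -0.27 to 0.28 over the 45 pairs, with a median of 0.01. A rho of 0.3 or more in size was reached by 0 of the 45 pairs. Among the 21 pairs whose genes both had a share of 50% or more it was likewise 0, where 0.442% of all pairs of such genes reached it, so the count is near the background. The highest value was that of Csf2ra and Csf3r, 0.28, with 0.17 on plate 1 and 0.48 on plate 2. Csf1 and Csf3r had -0.27 (-0.31 and -0.20), and Csf1r and Csf3r 0.22. The TGF-beta receptor chains Tgfbr1 and Tgfbr2 had 0.02, and the GM-CSF receptor chains Csf2ra and Csf2rb 0.12.

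**Figure D4:**
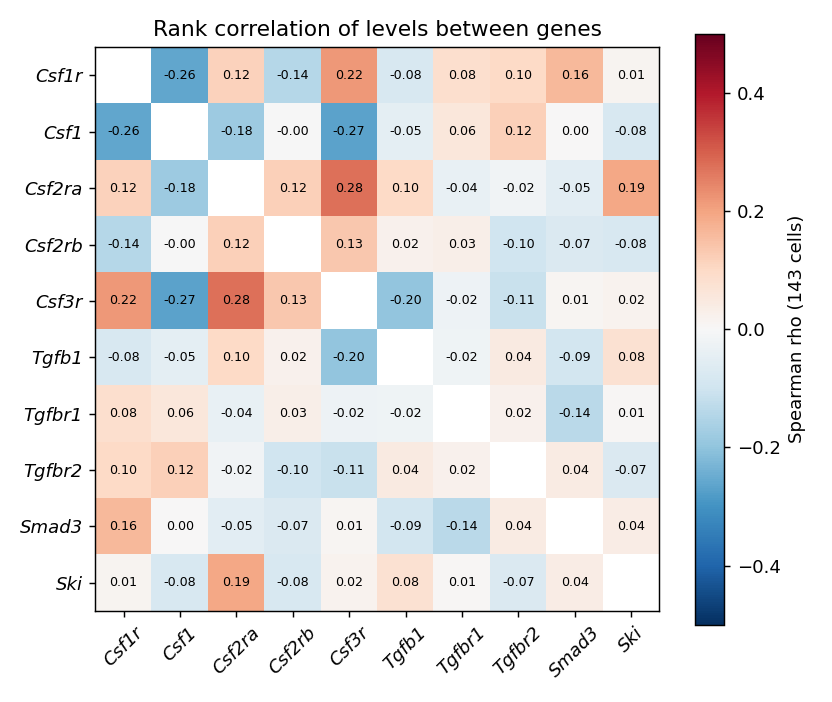
Spearman's rho of CPM over 143 cells for each pair of the 10 genes, on a colour scale from -0.5 to 0.5 with each value printed. No pair reaches 0.3 in size, and the deepest colours belong to pairs among Csf1r, Csf1, Csf2ra and Csf3r.

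The receptor Csf1r and its ligand Csf1 ran weakly against each other over all cells, with a rho of -0.26 (-0.20 on plate 1 and -0.35 on plate 2). Given plate and the number of genes detected it was -0.25, and with counts scaled to the spike-ins of each well it was -0.12. It was also taken apart for cells in and out of a cycling class, set by genes of the cell cycle as given further on. Among the 80 cells outside the class it was -0.48 (-0.49 and -0.41 on the plates), and among the 63 in it 0.02 (0.17 on plate 1, and -0.42 in the 16 cells of plate 2). The difference between the classes was not tested, and the look within the cycling class was added after the data were seen. Csf1r also ran against the number of genes detected (rho -0.32), while Csf1 did not (0.07), and the part of this in their relation was not tested beyond the partial value.

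The genes most like Csf1r in level, among 2179 others read in at least 50% of cells, were Cx3cr1, the fractalkine receptor, with a rho of 0.49 (0.48 and 0.41 on the plates), Serinc3 with 0.48 (0.52 and 0.33) and P2ry12, a purinergic receptor of microglia, with 0.47 (0.51 and 0.39). The lowest were Cstb, the cathepsin inhibitor cystatin B, with -0.52 (-0.53 and -0.49), Lilrb4 with -0.49 and Lgals3, galectin-3, with -0.46 (-0.48 and -0.43). With counts scaled to spike-ins, Cstb had -0.26 and Cx3cr1 0.50. The genes of lowest rho were looked at after the data were seen. In all, 66 genes (3.03%) reached 0.3 in size with Csf1r, 17 above and 49 below 0. Of all pairs of genes read in at least 50% of cells, 0.442% did.

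Csf1 was most like Cd9, a tetraspanin, with a rho of 0.47 (0.48 and 0.44 on the plates), Hif1a, the transcription factor of the hypoxia response, with 0.45 (0.34 and 0.67), and Sdc4, a heparan sulfate proteoglycan, with 0.42 (0.40 and 0.43). The lowest were Lpcat2 with -0.42, Ypel3 with -0.38 and Serinc3 with -0.37. For Csf1, 30 genes (1.38%) reached 0.3, 24 above and 6 below 0, beside the same 0.442% of all pairs. The orders of receptor and ligand were opposed: all 17 genes that ran with Csf1r had a rho below 0 to Csf1 (median -0.24), and of the 49 that ran against it 48 had a rho above 0 (median 0.20), where 1263 of all 2179 genes did. Cd9 had -0.43 to Csf1r, and Cx3cr1 and P2ry12 had -0.25 and -0.27 to Csf1. These values share the cells, the totals and the rho of Csf1r and Csf1 itself, and are not separate evidence.

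**Figure D5:**
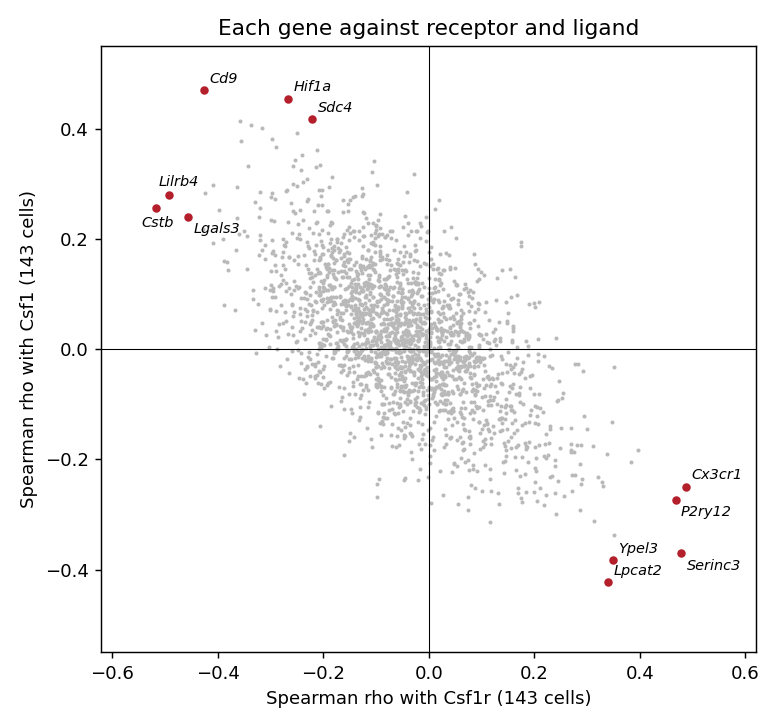
Each of 2179 genes read in at least 50% of cells, by its Spearman's rho over 143 cells with Csf1r (horizontal axis) and with Csf1 (vertical axis). Red points are the 3 highest and 3 lowest genes of each. Cx3cr1, P2ry12 and Serinc3 lie at the lower right, and Cd9, Hif1a and Sdc4 at the upper left.

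The other genes had few close companions. Csf3r was most like Npc2, a lysosomal cholesterol carrier (0.38), Ypel3 (0.36) and Rnase4 (0.34), and 20 genes (0.918%) reached 0.3, among them Erh with -0.40 and the tubulin gene Tuba1b with -0.33. Csf2ra was most like Acaa2 (0.31), Itgb5 (0.30) and Ucp2 (0.29), and 1 gene (0.0459%) reached 0.3. Tgfbr1 was nearest to Rpl13 (0.28), Cript (0.25) and Ube2d3 (0.24), with 0 genes past 0.3. Tgfbr2 was nearest to Pnrc2 (0.29), Ttc3 (0.27) and Lrrfip1 (0.25), and Ski to Hnrnpa2b1 (0.29), Pcyox1 (0.27) and Nipbl (0.26). For Tgfbr2, 2 genes (0.0918%) reached 0.3, and for Ski 1. Of all pairs of genes read in at least 50% of cells, 0.442% reached 0.3. The shares of Csf1r, Csf1 and Csf3r were above this, and those of Csf2ra, Tgfbr1, Tgfbr2 and Ski were below it. In counts this sparse, values of that size are a description only.

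Levels of the TGF-beta receptors had a rho near 0 with the microglial genes linked to TGF-beta. For the 17 of these genes read in at least 50% of cells, rho with Tgfbr1 ran from -0.17 (Pros1) to 0.14 (Sparc) with a median of 0.01, the median over all 2179 genes being 0.01. With Tgfbr2 it ran from -0.19 (Sparc) to 0.18 (C1qa) with a median of -0.03. With Csf1r the median of the same 17 genes was 0.19, against -0.05 over all genes, and Cx3cr1 was highest.

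The cycling class took cells in which 6 or more of 24 S genes, or 8 or more of 31 G2/M genes, stood at 10 CPM or above. The class held 63 cells, 47 on plate 1 and 16 on plate 2, and the other 80 cells were 48 and 32. Cycling cells had more genes detected (median 3590 against 2904) and more gene counts per spike-in count (27.98 against 21.7). Scaling to spike-ins therefore moved the median log2 ratio of cycling over other cells, taken over 7616 genes, from 0.10 to 0.51, a shift of 0.41.

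Csf1r, Csf1 and the TGF-beta type II receptor had lower pooled CPM in cycling cells, within 2-fold, though for Csf1 this depended on the limits of the class. Csf1r ran from 250.5 to 4663 CPM with a median of 1624 in cycling cells, and from 587 to 5703 with a median of 2055 in the others, so the classes overlapped widely. Its log2 ratio of pooled CPM + 1 was -0.34 (-0.40 and -0.28 on the plates) but 0.08 with spike-in scaling, and set against the median gene it was -0.44 and -0.43. Csf1 had medians of 122.97 and 188 CPM, a ratio of -0.38 (-0.42 and -0.19), 0.04 with spike-ins, and -0.48 and -0.47 against the median gene. With looser limits (4 S or 6 G2/M genes) the ratio of Csf1 was -0.02, where that of Csf1r was -0.51 and that of Tgfbr2 -0.45. Csf1 was read in 82.5% of cycling and 75% of other cells. Tgfbr2 had medians of 79.6 and 172 CPM, a ratio of -0.46 (-0.42 and -0.44), -0.04 with spike-ins, and -0.56 and -0.55 against the median gene. Csf2ra hardly differed in CPM, with -0.03 (-0.03 and -0.02), and had 0.39 with spike-ins. Tgfbr1 had -0.20 and 0.21 on the same scales. The summed level of the border-associated macrophage markers had a lower median in cycling cells too, 361 CPM (0 to 2193) against 471 (0 to 3381). In each class 6 of 9 were read, with Cd163, Lyve1 and Cd209f at 0. Single markers did not all move alike. Mrc1 had a log2 ratio of -1.02 (-1.28 and -0.44 on the plates) at shares of 55.6% and 56.2%. Stab1 had -0.27 (-0.57 and 0.39) and was read in 90.5% of cycling and 85% of other cells. Pf4 had -0.76 and Ms4a7 -0.55, while Clec4n and F13a1, read in 7 and 5 cells, had -0.79 and 1.32. The part of these markers in the ratios was not tested.

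Csf3r and Csf2rb had the widest gaps between the classes in the share of cells with a read, which was not tested. Csf3r was read in 44.4% (31.9 to 57.5) of cycling and 60% (48.4 to 70.8) of other cells, and after thinning each cell to 250000 gene counts in 44.4% and 56.2%. Its log2 ratio was -0.75, but -1.11 on plate 1 and 0.02 on plate 2, and -0.34 with spike-ins. Csf2rb went the other way, with reads in 65.1% (52.03 to 76.7) of cycling and 37.5% (26.9 to 49.04) of other cells. After thinning its shares were the same. Cycling cells had more genes detected, and thinning sets equal counts per cell, not equal numbers of genes detected. Over all cells the rho with the number of genes detected was 0.20 for Csf2rb and -0.19 for Csf3r. No share over all genes was set beside these gaps, and the part of genes detected in them was not tested. The log2 ratio of Csf2rb, 0.23, was 0.41 on plate 1 and -0.19 on plate 2. Ski had 0.23 (-0.01 and 0.76) and Smad3 0.02 (0.88 and -0.93), so neither had a like value on both plates. Of the same 9 genes, 0 were past 2-fold in either direction, where 16.5% of 7616 genes were, 11.5% higher and 5.03% lower. Tgfb1 was read in 5 cells of each class.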

How the data were processed

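Single cells were sequenced with Smart-seq2. The count table that the authors deposited has a column per cell, 23337 gene rows and 92 spike-in rows, and its values are unnormalised reads. Build mm10 and the tools HTSeq, Picard, STAR 2.5.3a and Trim Galore 0.4.3 are named in the submitters' processing notes (annotation and strand settings: not given in the sources used here). CPM was computed from the deposited counts over all gene counts, spike-ins left out and Rn45s (9.28% of gene counts) kept. No cell was removed, no pair of cells was identical, and no doublet caller was run on the singly sorted wells. Coordinates, exon lengths and sequences came from GENCODE M21 (GRCm38, the same assembly as mm10). Genes, lists, settings and the rule for names (all 10 genes, 2 to 4 leading or countable genes of each list, the 3 genes of highest rho) were chosen with earlier results of these data known. Cells of 1 pool are not replicates, so no p-value is given. Pseudocount was 1 CPM. Steps were tested on simulated counts. Tools were Python 3.11.15, numpy 2.4.6, pandas 2.3.3, scipy 1.17.1, Biopython 1.88 and matplotlib 3.10.9. Alternatives covered detection limits, thinning, scaling, pseudocount, filters, class limits, plates and measures of spread and rank. They are described with their effect further on.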

Additional observations from a re-analysis of the deposited data

How the results depend on the processing

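The count of genes read in at least 50% of cells was 7. It lay between 6 and 8 under the other detection limits, thinning to 250000 counts and either plate alone. At a pooled 100 CPM or more stood 5 genes, under every denominator and plate tried. The lowest of these over all cells, Csf3r, ranked 1218th of the 12801 genes with a count. No share of all genes at that level was taken. Members past 2-fold between plates were 0 under each setting, while the share of all genes was 21.2% without the level filter and 3.23% with a pseudocount of 10. Between cycling and other cells the count of 0 became 1 on plate 1 alone (Csf3r, -1.11), where 21.6% of all genes were past 2-fold. With stricter class limits it became 1 as well (Smad3, -2.27, read in 15 cells), where the share of all genes was 15.9%. The cause of either change was not tested. Pairs with a rho of 0.3 or more numbered 0 over all cells and 1 given plate and genes detected. They numbered 1 on plate 1, 3 on plate 2, 1 outside the cycling class and 1 within it. The share over all pairs of genes read in at least 50% of cells, 0.442%, was taken over all cells only. The counts in fewer cells and given plate and genes detected thus have no background, and fewer cells give larger values by counting error. The rho of Csf1r and Csf1 was -0.12 with spike-in scaling, -0.48 outside the cycling class and 0.0243 within it. Of the genes of the set that could be placed, all but Tgfb1, 7 lay above the running median of spread. With the variance of log2(CPM + 1) it was 3. A running median by its making has about 50% of all genes above it, so these counts are a description only. Of the other rho values under these settings, 21 moved by 0.1 or more, most of them on plate 2, which has fewer cells, and 287 moved by less. No paired analysis was possible because the series has 1 group. Without molecular identifiers, reads copied from a molecule are counted separately, and a pool hides how animals differ.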

Other observations

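Genes of the kinase branch of TGF-beta signalling, which runs beside the Smads, were all read: 13 of 13 had a count, with a median share of 23.8% of cells. Rhoa, a small GTPase, was read in 97.9% of cells, and Tab2, a partner of the kinase TAK1, in 42.7%. Stat3, a transcription factor downstream of cytokine receptors, was read in 53.1% of cells, and Stat5a and Stat5b, downstream of the GM-CSF receptor, in 6.29% and 9.79%.

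Of the listed pathway genes outside the set of 10 with a pooled level of 10 CPM or more, 9 (8.26%) were past 2-fold between cycling and other cells, 5 higher and 4 lower, below the 16.5% of all 7616 genes. They are named after their values were seen. Among TGF-beta family receptors, Bmpr1a had a log2 ratio of 1.64 and Bambi, a decoy receptor, 1.07. Emilin1, a matrix protein, had 1.17, Tgfbi, a secreted target of TGF-beta, 1.69 and Tmem119, a membrane protein of microglia, 1.20 (1.00 on plate 1 and 1.15 on plate 2). Lower values were those of Ppm1a, a phosphatase of Smads, with -2.84, Traf6 with -2.15, Junb with -1.06 and Bmpr2, a receptor of bone morphogenetic proteins, with -1.004 (-1.25 on plate 1 and -0.35 on plate 2). These genes were read in under 30% of cells each, and several values differed between plates: Tgfbi had 0.70 on plate 1 and 5.33 on plate 2, Junb -0.23 and -2.61, and Bmpr1a 1.601 and 0.18.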
